A study of Mus musculus with 8 samples.

Results

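Genes of cholesterol and fatty acid synthesis were examined in marginal zone B cells (MZBs), the splenic B cells that sit beside the marginal sinus and meet blood-borne antigen first. The 37 genes are a named list, chosen with earlier results of these data known. All 37 were found among the 23997 genes of the processed table. They comprise 17 genes of sterol synthesis and transport, 10 of fatty acid synthesis, elongation and desaturation, 5 regulators of the SREBP pathway, 2 LXR receptors and 3 LXR targets. The labels describe 8 RNA-seq libraries from C57BL/6 mice, 4 given the genotype ACKR3+ and 4 the genotype ACKR3-, with GFP- and GFPposi in the titles. ACKR3 (CXCR7) takes up the chemokine CXCL12 without classical G protein signalling. For age, sex, the reporter allele and the sorting gate, the labels give nothing. The comparison set up by the labels is between MZBs called ACKR3+ and MZBs called ACKR3-.

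The table gives 1 estimated fragment count and 1 variance per gene for each of 2 conditions, q1 and q2, pooled over libraries. No label ties q1 or q2 to ACKR3+ or ACKR3- cells, so values are given by column and say nothing of which genotype was higher. Ackr3 itself counted 1030.0 fragments in q1 against 149 in q2, and this value was not used to assign the columns. The column totals were 16877559 and 16653774 fragments, and the depth of single libraries is unknown. With 1 value per condition there is no replicate check and no test, and differences are described by size. The value after ± is the SD implied by the deposited variance. The B cell genes were abundant in both columns, with 37926 and 35325 fragments for Ms4a1, 30681 and 30249 for Cd79a, and 26601 and 23973 for Cd79b, and all 6 marginal zone markers on the list were above 100 fragments in at least 1 column. Log2 ratios are q2 over q1 with a pseudocount of 1 and cover the 33 members whose higher column held at least 100 fragments, as it did for 9582 genes of the table.

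Cells build cholesterol from acetyl-CoA through mevalonate, squalene and lanosterol, and the same acetyl-CoA pool feeds fatty acid synthesis. The transcription factors SREBP-1 and SREBP-2 switch both routes on: when membrane sterol is low, SCAP escorts SREBP from the endoplasmic reticulum to the Golgi for cleavage, and when sterol is high, the INSIG proteins hold SCAP back. LXR receptors answer the opposite state, sensing oxysterols and raising cholesterol efflux. Lymphocytes are known to raise sterol and fatty acid synthesis when they enlarge and divide.

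SREBP acts at sterol regulatory elements, usually beside the factor NF-Y, which binds the CCAAT box. RefSeq promoters (GRCm38.p6, from 250 bases before to 50 after the start site) matched 29 of the 37 members by symbol. The 250 upstream bases are shown for the 3 sterol genes with the highest q2 over q1 ratios among those matched, Idi1 (chr13:8885356-8885605, plus strand), Hmgcs1 (chr13:119690101-119690350, plus strand) and Cyp51 (chr5:4104698-4104947, minus strand), and for the 2 sterol genes with at least 100 fragments that were higher in q1, Mvk (chr5:114444019-114444268, plus strand) and Mvd (chr8:122443423-122443672, minus strand). Each reads 5′ to 3′ in the direction of the gene, and capitals mark CCAAT on either strand (ATTGG on the reverse) and TCACNCCAC, a sterol regulatory element core.
Idi1: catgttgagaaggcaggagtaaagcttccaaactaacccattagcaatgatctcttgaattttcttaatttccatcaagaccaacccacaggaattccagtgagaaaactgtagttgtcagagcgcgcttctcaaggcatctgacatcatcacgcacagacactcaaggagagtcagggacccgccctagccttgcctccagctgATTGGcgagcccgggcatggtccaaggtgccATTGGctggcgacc
Hmgcs1: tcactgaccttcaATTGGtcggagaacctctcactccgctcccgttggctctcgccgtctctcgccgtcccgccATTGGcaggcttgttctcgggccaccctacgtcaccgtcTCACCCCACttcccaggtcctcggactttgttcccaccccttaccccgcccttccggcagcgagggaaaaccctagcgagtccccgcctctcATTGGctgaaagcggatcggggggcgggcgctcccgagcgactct
Cyp51: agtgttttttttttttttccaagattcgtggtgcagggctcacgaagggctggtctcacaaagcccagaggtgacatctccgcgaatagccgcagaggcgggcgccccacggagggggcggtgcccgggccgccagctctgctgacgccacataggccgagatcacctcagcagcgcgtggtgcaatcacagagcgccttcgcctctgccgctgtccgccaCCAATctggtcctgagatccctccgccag
Mvk: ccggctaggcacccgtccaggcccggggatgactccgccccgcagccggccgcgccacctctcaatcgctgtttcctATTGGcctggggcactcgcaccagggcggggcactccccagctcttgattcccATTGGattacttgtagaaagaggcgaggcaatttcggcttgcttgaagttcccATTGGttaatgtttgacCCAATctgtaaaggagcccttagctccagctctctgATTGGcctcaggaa
Mvd: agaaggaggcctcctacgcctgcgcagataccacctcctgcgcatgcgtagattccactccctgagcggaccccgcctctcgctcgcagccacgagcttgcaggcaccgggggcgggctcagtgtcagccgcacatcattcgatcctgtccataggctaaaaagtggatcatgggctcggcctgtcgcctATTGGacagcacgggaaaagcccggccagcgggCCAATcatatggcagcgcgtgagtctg

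A CCAAT box stood in the promoter of 12 of 13 matched sterol genes, at any of a gene's listed start sites. The share over all 27025 genes with a promoter was 41.1%, and over the 7384 of them with at least 100 fragments it was 43.3%. At least 2 CCAAT boxes in 1 promoter were found for 8 of the 13 sterol genes and for 13.3% of all genes. In the upstream bases shown, Mvk carried 5, Hmgcs1 3, Idi1 and Mvd 2 each and Cyp51 1, so genes on both sides of equality had them. Among fatty acid genes, 4 of 7 matched promoters held the box. The core TCACNCCAC was found in Hmgcs1 alone among the 29 members, at positions -137 to -129 from the start site, and in 1.44% of all genes with a promoter. The strict LXR motif, a direct repeat spelled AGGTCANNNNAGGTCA, was in no member promoter and in 4 genes of the promoter set. Both strands were searched for each motif, and the matches in these windows overlap no other motif searched. A missing match says only that these letters are not in the window.

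Sterol synthesis genes were mostly higher in q2, by small amounts. Of the 17, 16 passed 100 fragments, and 14 of these were higher in q2 and 2 in q1, where 50.2% of all genes were higher in q2 and 49.8% in q1. Their median log2 ratio was 0.18 and ranged from -0.31 to 0.73, against a median of 0.00 for all 9582 genes. At least 1.5-fold higher in q2 were 2 members, Idi1 and Sqle, where 3.39% of all genes were, and none was 1.5-fold higher in q1, where 1.58% were. Corrected for mean expression, length and GC content, Idi1 came to 0.58, just under 1.5-fold, and Sqle to 0.73. Toward q2, 6 members exceeded 1 deposited SD of their ratio, Hmgcs1, Idi1, Fdps, Sqle, Cyp51 and Stard4, where 11.1% of all genes did. Toward q1 none did, where 8.41% of all genes did. Summed over the 17 genes, 5175 fragments in q1 and 6207 in q2 made up 0.0307% and 0.0373% of the columns, a ratio of 1.2. In bulk samples, more cells of a type and more RNA per cell cannot be told apart.

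Marker genes of other cell states differed beside the sterol genes. All 10 cell cycle genes on the list were higher in q2, with summed counts of 4184 and 12421 fragments in q1 and q2. Of these, Cdk1, Ccnb1 and Ube2c reached 100 fragments in q2 only. Plasma cell markers mostly leaned the same way, as 6 of the 7 that met the minimum had more fragments in q2. Irf4 was the exception, with 10113 fragments in q1 and 8357 in q2, at -0.28 ± 0.18. Among the 6, Sdc1 met the minimum through q2 only, so its direction is tied to that rule. Prdm1 was barely past 1 deposited SD, at 0.25 ± 0.24. The full list of 8 summed to 18422 and 54497, but Igj alone supplied 3234 and 33006, so 1 gene made up most of that difference. All 7 germinal center genes were higher in q2, with sums of 613 and 2759. Bcl6 alone among them reached 100 fragments in both columns, and the others met the minimum through q2 only. The 6 marginal zone markers were all higher in q1, with sums of 128357 and 107528, of which Cr2 alone supplied 81167 and 70851. Of the 6, 4 exceeded 1 deposited SD. The 5 B cell genes listed were also all higher in q1, at a median log2 ratio of -0.11, and none exceeded 1 deposited SD. Among macrophage genes, 6 of the 7 with enough fragments were higher in q1, and the 12 listed summed to 1476 and 804. Slc40a1, Hmox1, Vcam1, Csf1r and Spic reached 100 fragments in q1 only, and Emr1 in q2 only. Their direction is thus tied to the minimum, which the sums do not use. The 6 T cell markers found summed to 692 and 926, of which Lck alone supplied 524 and 689. No listed marker of these cells that the table holds was at 0 in both columns. The part of these differences in the sterol result was not tested.

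The early mevalonate enzymes did not all differ in 1 direction. Hmgcs1, which makes HMG-CoA, had 540.0 ± 58.3 fragments in q1 and 746 ± 75.7 in q2; the log2 ratio was 0.47 ± 0.21. Idi1 (chromosome 13, 8885501 to 8892451, GRCm38), which isomerises the isoprene unit, had 349 ± 42.4 and 551 ± 59.4 fragments; the log2 ratio was 0.66 ± 0.23, or 1.58-fold. Fdps, which condenses isoprene units into farnesyl diphosphate, had 243 ± 32.9 and 329 ± 40.8, at 0.44 ± 0.26. These 3 enzymes stood above at least 95.3% of all genes in the order of ratios. The kinases and the decarboxylase between them were near equal or lower in q2. Mevalonate kinase, Mvk, had 144 ± 23.1 fragments in q1 against 116 ± 20.1 in q2, at -0.31 ± 0.34. Phosphomevalonate kinase, Pmvk, had 308 ± 38.6 and 341 ± 41.7, at 0.14 ± 0.25. The decarboxylase Mvd had 248.8 ± 33.2 and 210.3 ± 29.5, at -0.24 ± 0.28. The ratios of Mvk, Pmvk and Mvd lay within 1 deposited SD of equality.

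All 4 enzymes from squalene to lanosterol demethylation were higher in q2. Sqle (chromosome 15, 59315077 to 59331192), squalene epoxidase, a rate-controlling step of the pathway, had 178 ± 26.7 fragments in q1 and 296 ± 37.9 in q2. Its log2 ratio of 0.73 ± 0.28, a 1.66-fold difference, was the highest among the 33 members and above that of 97.2% of all genes. Cyp51, the lanosterol demethylase, had 493 ± 54.6 and 654 ± 67.9, at 0.41 ± 0.22. Lss, which cyclises squalene epoxide to lanosterol, had 278 ± 36.3 and 315 ± 39.6, at 0.18 ± 0.26. Fdft1, squalene synthase and the entry to the sterol branch, had 282 ± 109 and 326 ± 110.0, at 0.21 ± 0.74. The deposited errors of Fdft1 were 2.98 and 2.72 times the running median of genes of similar count, so its ratio is the least precise of the 33. Exons of Fdft1 overlap those of other genes, mainly Ctsb, over 18.3% of their length, and Ctsb had 5088 and 4478 fragments.

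The late sterol enzymes were close to equality. Dhcr7, which makes cholesterol from 7-dehydrocholesterol, had 499 ± 55.1 and 529 ± 57.5 fragments, at 0.08 ± 0.22. Ebp, the sterol isomerase, had 452 ± 51.1 and 470.5 ± 52.7, at 0.06 ± 0.23. Nsdhl, which removes the C4 carboxyl group, had 350.1 ± 42.5 and 361 ± 43.4, at 0.04 ± 0.25. The 3-ketosterol reductase Hsd17b7 had 233 ± 31.9 and 263 ± 34.8, at 0.17 ± 0.27. The C14 reductase Tm7sf2 stayed under the minimum, with 77.9 and 73.2 fragments. The 4 late enzymes above the minimum had a median of 0.07, the 4 of squalene and lanosterol 0.31 and the 6 early ones 0.29. The differences between these steps were not tested. Acat2, the cytosolic thiolase that starts the pathway, had 209 ± 29.6 and 237 ± 32.3 fragments, at 0.18 ± 0.28. Stard4, which carries cholesterol between membranes, had 290.4 ± 37.2 and 387 ± 45.6, at 0.41 ± 0.25.

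**Figure D1:**
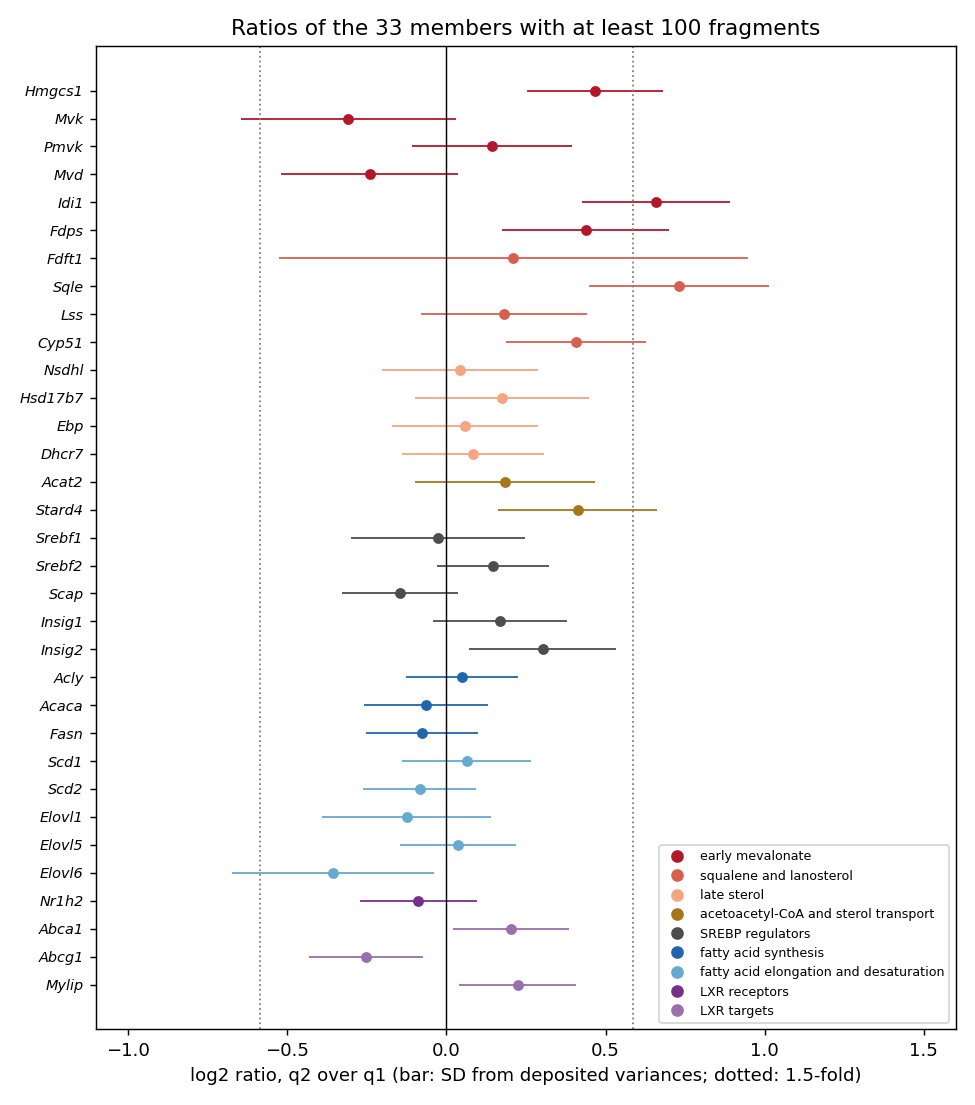
Log2 ratio of q2 over q1 (x axis) for each of the 33 members that reached 100 fragments in either column (y axis), colored by role; points are ratios, bars are the SD from the deposited variances and dotted lines mark 1.5-fold. Sqle at 0.73 and Idi1 at 0.66 pass the right dotted line, Elovl6 at -0.36 is lowest, and the bar of Fdft1 is the widest.

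Sequence shared with other annotated genes may bear on several of these counts. Of the 50-base words of the longest coding transcript, 86.4% in Fdps, 52.6% in Acaca, 45.9% in Acat2, 21.3% in Idi1 and 10.9% in Fdft1 also occur in transcripts of another gene in GENCODE M21, so their counts are uncertain where reads could be split. Among the main partners of these genes, only Acat3, the near-copy of Acat2, had a deposited count, with 470.3 and 496 fragments, at 0.08. That of Fdps, Gm43738, also overlaps its exons. Hmgcs1, Fdft1, Fdps, Scap and Tm7sf2 overlap other annotated exons over more than 10% of their exonic length. Without the members past 10% on either measure, the sterol median was 0.14.

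Regulators of SREBP differed little. Srebf2, which encodes the factor that drives sterol genes, had 4676 ± 402 fragments in q1 against 5174 ± 445 in q2, at 0.15 ± 0.18. Srebf1, which drives fatty acid genes and is itself a target of LXR, had 1461 ± 201 and 1436 ± 187, at -0.03 ± 0.27. Scap had 1904 ± 168 and 1720.4 ± 154, at -0.15 ± 0.18. Insig1, a direct SREBP target that restrains SCAP, had 613 ± 64.5 and 689 ± 70.7, at 0.17 ± 0.21. Insig2, its partner that is not driven by SREBP in the same way, had 410 ± 47.6 and 505 ± 56.3, at 0.30 ± 0.23. Of these 5, Insig2 was the one whose ratio exceeded 1 deposited SD. Per kilobase of the longest coding transcript, Srebf2 was 2.71 times as abundant as Srebf1 in q1 and 3.05 times in q2. Insig1 was 1.5 and 1.36 times as abundant as Insig2 on that scale.

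Most fatty acid genes were close to equality between the columns, over a wide range of levels. Of the 10, 8 passed 100 fragments, of which 3 were higher in q2 and 5 were higher in q1; the median log2 ratio was -0.07. None of the 8 was 1.5-fold apart, and Fads1 and Fads2 were under the minimum. The summed counts of the 10 were 39330 and 39766 fragments, or 0.233% and 0.239% of the columns, a ratio of 1.01. Acly, which supplies cytosolic acetyl-CoA from citrate, had 3513 ± 304 and 3632 ± 313 fragments, at 0.05 ± 0.18. Acaca, the carboxylase that makes malonyl-CoA, had 1033 ± 98.6 and 987 ± 94.9, at -0.06 ± 0.20. Fasn, the fatty acid synthase, had 3252 ± 282 and 3082 ± 267, at -0.08 ± 0.18. The committed steps of the route thus lay within 1 deposited SD of equality.

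Stearoyl-CoA desaturases, which make oleate from stearate, were the most abundant members. Scd1 had 21213 ± 2089 fragments in q1 and 22166 ± 2201 in q2, ranking 75 and 58 of the 23997 genes by count, with a log2 ratio of 0.06 ± 0.20. Scd2 had 7373 ± 642 and 6958 ± 606, ranking 337 and 361, at -0.08 ± 0.18. Both lie on chromosome 19, Scd1 at 44394455 to 44407879 and Scd2 at 44293674 to 44306864. Per kilobase of transcript, Scd1 had 3.25 times the level of Scd2 in q1 and 3.60 times in q2. Of 50-base words, 4.66% of the Scd1 transcript and 4.01% of the Scd2 transcript occur in another gene, so the 2 genes can largely be told apart by sequence. The other Scd paralogs were scarce, with 1.92 and 3.43 fragments for Scd3 and 28.2 and 23.7 for Scd4.

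Elongases and front-end desaturases covered a wide range of levels. Elovl5, which elongates polyunsaturated chains, had 1876 ± 167 and 1922 ± 172 fragments, at 0.04 ± 0.18. Elovl1, an elongase of very long saturated chains, had 856 ± 87.8 and 785 ± 120.3, at -0.12 ± 0.27. Its error in q2 was 1.53 times that of genes of similar count, and 1.94% of its exonic length overlaps other exons, chiefly the cell cycle gene Cdc20, which had 88.4 and 321 fragments. Elovl6, which extends palmitate to stearate, had 176 ± 26.6 and 137 ± 22.4, at -0.36 ± 0.32, the lowest ratio of the 33 members, past 1 deposited SD and one below which 3.94% of all genes lay. Per kilobase, Elovl5 stood at 22.8 times Elovl6 in q1 and 29.9 times in q2.

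Fads1 and Fads2, the delta-5 and delta-6 desaturases of polyunsaturated fatty acid synthesis, stayed under the minimum of 100 fragments. Fads1 had 36.9 ± 9.75 and 82.7 ± 16.5 fragments, or 2.24 times as many in q2 (exact 95% counting interval 1.51 to 3.40). Fads2 had 2.33 ± 2.0 and 14.8 ± 5.57, or 6.35 times as many (1.74 to 67.6). The neighboring paralog Fads3 had 1.78 and 7.43 fragments. The counting intervals treat estimated fragments as counts and cover counting error only. All 3 were higher in q2, at levels far below those of the stearoyl-CoA desaturases: per kilobase, Scd1 had 411 times the level of Fads1 in q1 and 192 times in q2.

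**Figure D2:**
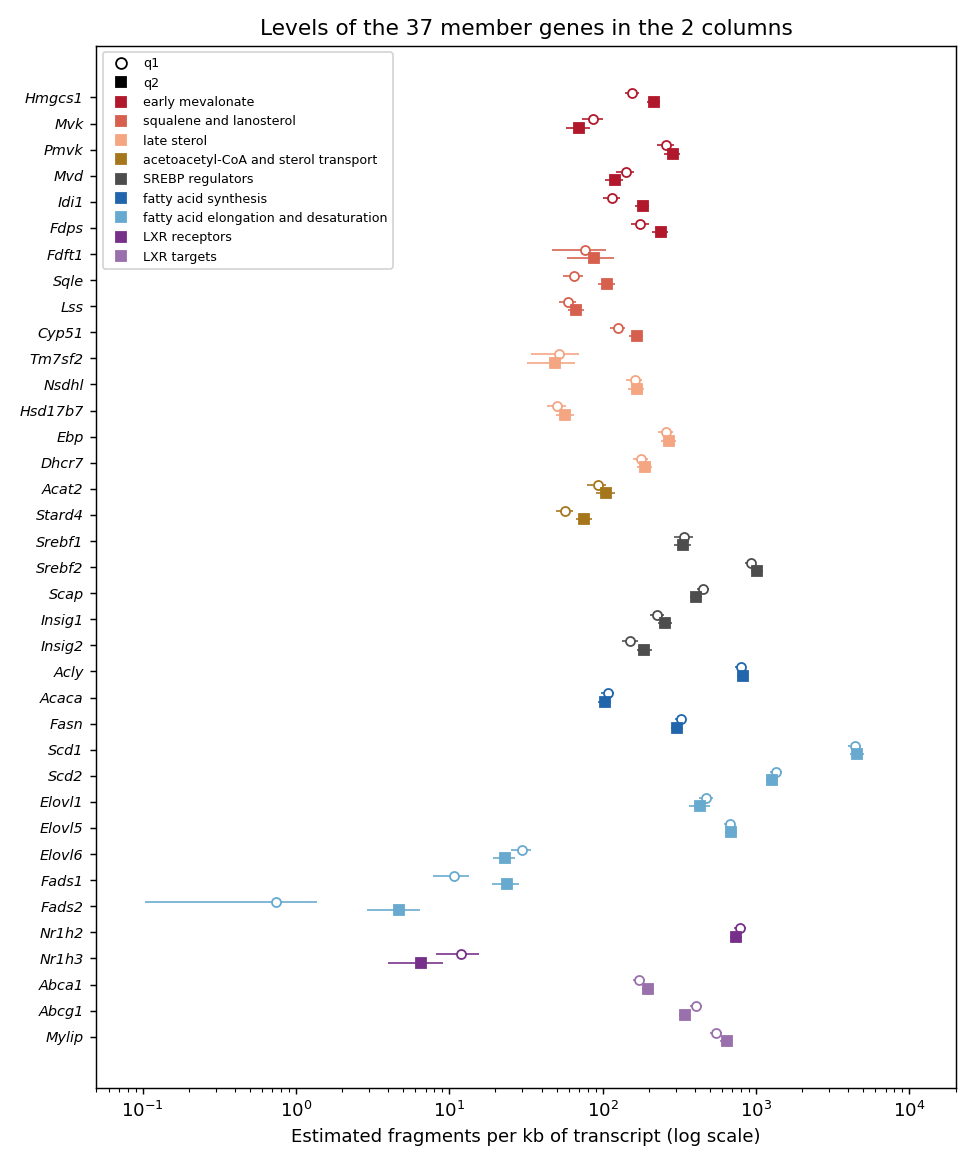
Estimated fragments per kilobase of the longest coding transcript (x axis, log scale) for the 37 members (y axis), colored by role; open circles are q1, filled squares are q2 and bars are the deposited SD divided by the same length. Scd1 and Scd2 have the highest levels, Fads2, Nr1h3 and Fads1 the lowest, and the symbols of both columns lie close together for most genes.

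LXR receptors were represented almost entirely by LXR beta. Nr1h2, which encodes LXR beta, had 1579 ± 143 fragments in q1 against 1486 ± 135 in q2, at -0.09 ± 0.19. Nr1h3, which encodes LXR alpha and is typical of macrophages and liver, had 23.3 ± 7.35 and 12.7 ± 4.99 fragments, or 0.548 times as many in q2 (exact 95% counting interval 0.263 to 1.16). Per kilobase, Nr1h2 was 66.4 times as abundant as Nr1h3 in q1 and 114 times in q2. Most macrophage markers on the list were also lower in q2, as given above. Emr1 was higher there, at 0.76 ± 0.37, and Cd68 was near equal, at -0.19 ± 0.31. The part of these markers in the Nr1h3 count was not tested.

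The 3 LXR targets differed in both directions. Abca1, the transporter that loads cholesterol onto lipid-poor apolipoprotein, had 1771 ± 159 fragments in q1 against 2037 ± 181 in q2, at 0.20 ± 0.18. Mylip, a ubiquitin ligase that limits lipoprotein uptake, had 1689 ± 153 and 1973 ± 176, at 0.22 ± 0.18. Abcg1, which exports cholesterol to mature lipoproteins, had 2383 ± 209 and 2001 ± 177, at -0.25 ± 0.18. Each exceeded 1 deposited SD, 2 toward q2 and 1 toward q1, and none reached 1.5-fold. Per kilobase, Abcg1 had 2.37 times the level of Abca1 in q1 and 1.73 times in q2.

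Set side by side, SREBP targets and LXR targets overlapped in their ratios. The 27 SREBP targets are the sterol genes with Insig1 and the fatty acid genes without Elovl1, and 24 of them passed 100 fragments. Higher in q2 were 18 of these and higher in q1 were 6, and they had a median log2 ratio of 0.11 and a mean of 0.14. Without the members that share sequence, given above, the median was 0.061. For the 3 LXR targets the median was 0.20 and the mean 0.06, so the order of the lists depended on the summary, and the difference between the medians was -0.09. Within the SREBP targets, the sterol genes had a median of 0.18, with 15 of 17 higher in q2. The fatty acid genes had a median of -0.06, with 3 of 7 higher in q2. The split within the SREBP targets was thus wider than the gap between SREBP and LXR targets.

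**Figure D3:**
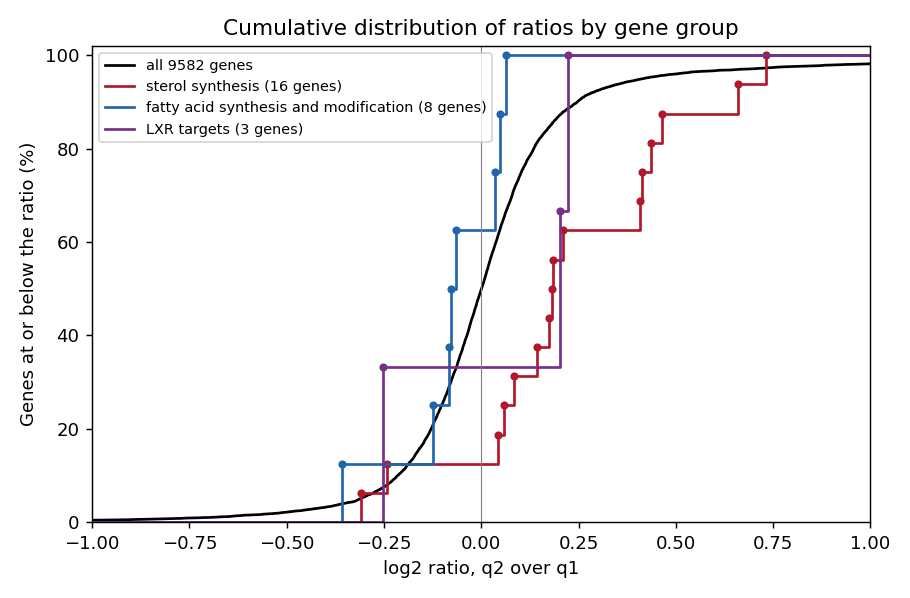
Cumulative share of genes (y axis, percent) at or below each log2 ratio of q2 over q1 (x axis) for all 9582 genes with at least 100 fragments, 16 sterol genes, 8 fatty acid genes and 3 LXR targets; each dot is a gene, and ratios outside -1 to 1 are not drawn. The sterol curve runs to the right of that of all genes from a ratio of 0 up to Sqle at 0.73, the fatty acid curve ends at 0.06, and the LXR targets fall on both sides of 0.

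Other genes of these pathways were examined from further lists. Of 25 further sterol genes, 24 passed 100 fragments; 15 were higher in q2, 9 in q1, and the median was 0.06. The highest ratio was that of Sc5d, which desaturates lathosterol, with 344 and 470.1 fragments, at 0.45 ± 0.24. The lowest was that of Npc1, the lysosomal cholesterol exporter, with 1530.0 and 1276 fragments, at -0.26 ± 0.24. A further 2 enzymes of the steps after lanosterol, chosen after their values were seen, were also higher in q2: Lbr, a C14 reductase that also anchors chromatin, at 0.36 ± 0.18, and Msmo1, the C4 methyl oxidase, at 0.31 ± 0.26. None of the 24 was 1.5-fold apart.

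Of 23 further fatty acid genes, 12 passed 100 fragments, with 6 higher in each column and a median of -0.01. Acss2, which makes acetyl-CoA from acetate, was highest with 87.2 and 112 fragments, at 0.35 ± 0.37, and met the minimum through q2 only. Lpin1, a phosphatidate phosphatase, was lowest with 383 and 332, at -0.21 ± 0.25. Of 13 further LXR genes, 7 passed, of which 5 were higher in q2 and 2 were lower; they had a median of 0.06. Arl4c, a small GTPase induced by LXR, had 83 and 132 fragments, at 0.66 ± 0.37, 1.58 times as many in q2 after the pseudocount. It was the 1 gene past 1.5-fold among those of these lists with at least 100 fragments. Arl4c met that minimum only through q2, the column where it was higher.

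The deposited errors of most members followed their counts. For 33 of the 37 in both columns, the SD over the count lay within 5% of the running median of 101 genes of similar count. The exceptions were Fdft1, Tm7sf2, Srebf1 and Elovl1. Tm7sf2 stood at 1.69 and 1.65 times that median in q1 and q2, and Srebf1 at 1.51 and 1.43 times. Exons of Tm7sf2 overlap those of other genes, mainly Vps51, over 12.1% of their length. For the other members the SD is thus a function of the count and holds little about the gene itself.

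**Figure D4:**
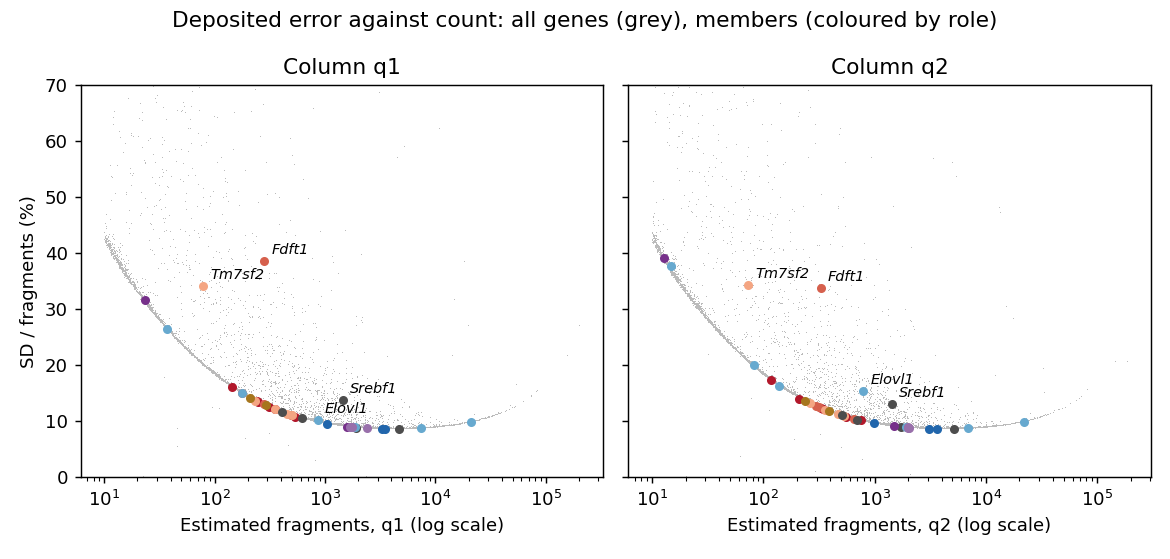
Deposited SD as a percentage of the estimated fragments (y axis) against the fragments (x axis, log scale) in q1 and q2, for all genes of 10 or more fragments (grey) and the members with as many (colored by role); values above 70% are not drawn. Members lie on the lower edge of the cloud, except Fdft1, Tm7sf2 and Srebf1 in both columns and Elovl1 in q2.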

How the data were processed

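Libraries were prepared from total RNA with an Illumina TruSeq RNA kit, per the labels' protocols. The submitters' processing notes list the build mm10, Cuffdiff 2.2.1, TopHat2 2.0.14 and cutadapt 1.8.1. Annotation, strand setting and filters: not given in the sources used here. The authors deposited estimated counts, not whole numbers, with variances, per gene and condition, pooled over libraries per the file headers; neither their scaling nor what the variance describes (1 library or a mean) is stated. The isoform part of the variance was 0 for every gene. The columns were not assigned to genotypes.

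Log2 ratios (pseudocount 1, minimum 100 fragments in the higher column, size rule 1.5-fold) and their first-order SDs were computed with Python 3.11.15, NumPy 2.4.6 and pandas 2.3.3. Their arithmetic was checked on counts simulated from the deposited variances. That check cannot show whether these variances match the spread between libraries. Exact (Clopper-Pearson) 95% intervals used SciPy 1.17.1. Lengths, positions and shared sequence are from GENCODE M21 (GRCm38). Every member is named, and further genes were named if 1.5-fold apart or extreme in their list; exceptions are marked, and some listed genes are not reported here. Members and lists were chosen with earlier results of these data known. Alternatives changed the pseudocount, scaling, minimum and fold; a correction for GC content, length and expression and the removal of members that share sequence were added after seeing the data.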

Additional observations from a re-analysis of the deposited data

How the results depend on the processing

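No paired analysis was possible because libraries were pooled before deposit, so no replicate number, left-out library or count test was available. Members at least 1.5-fold higher in q2 (2) became 3 with a minimum of 20, which admits Fads1, 1 with a minimum of 500 fragments, 1 after correction for mean expression, length and GC content, where Idi1 came to 0.58, 0 with a 2-fold rule and 6 with the lower fold rule tried. Members at least 1.5-fold higher in q1 (0) became 1 with a minimum of 20, which admits Nr1h3, and 1 with the lower fold rule. Of 165 recomputed ratios of the 33 members, 162 stayed within their counting interval. The other 3, all corrected, were Srebf2 (0.24), Fasn (0.029) and Scd1 (0.11). Corrected ratios changed sign for 4 members near 0, Nsdhl, Srebf1, Fasn and Elovl5, and 13 of 16 sterol genes were then higher in q2. The sterol median was 0.18 to 0.20 under the pseudocounts, scalings and correction, and 0.44 over the 4 genes left by a minimum of 500; the median over all SREBP targets was 0.061 without members that share sequence. The difference between SREBP and LXR medians stayed negative, from -0.27 with fatty acid targets alone to -0.021 with sterol targets alone. In each setting the LXR median was the ratio of a single gene, Abca1. By means the order was reversed, with 0.14 for SREBP targets and 0.06 for LXR targets. Scaling to equal totals moved the median of all genes by 0.02 and the share higher in q2 to 55.3%. Depth limits Fads1, Fads2, Nr1h3 and Tm7sf2 most.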

Other observations

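Enzymes of oxysterol metabolism, which make and remove ligands of LXR and of the B cell guidance receptor EBI2, differed widely in level. Ch25h, cholesterol 25-hydroxylase, had 0.24 fragments in q1 and 0.26 in q2, and Cyp7b1 was listed at 0 in both. Hsd3b7, which inactivates oxysterols, had 51.7 and 60.2 fragments. Cyp27a1, the mitochondrial sterol 27-hydroxylase, was the 1 member of this list above the minimum, with 466 and 432 fragments, at -0.11 ± 0.23. Among LXR partners, the retinoid receptor gene Rxrb had 1822 and 1656 fragments, at -0.14 ± 0.18, while Rxra had 74.4 and 34.0 and Rxrg was listed at 0 in both. Several lipogenic genes of liver and fat were also near 0, with Thrsp and Elovl3 listed at 0 in both columns and Me1 at 0 and 0.44 fragments.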
